A study of Mus musculus with 14 samples.

Results

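The genes of tryptophan breakdown, NAD salvage and kynurenine sensing that are described here are IDO1, IDO2, KYNU, KMO, HAAO, NAMPT, CD38, AHR and TIPARP. These 9 genes were chosen by name for their place in the pathway, with earlier results of these data known, and all 9 were found among the 24982 genes of the count table. Each library was made from the mature Ly6C-MHCII+ macrophages (CD45+, Ly6G-, CD103-, CD64+CD11b+) of the colonic lamina propria of 1 mouse of 5 weeks of age. All mice were C57BL/6 and carried *Cdcs1*, the colitis susceptibility locus. WT mice carried *Cdcs1* with no knockout named in the label (5 libraries, 4 of them tested), IL10RAKO mice were *Cdcs1*, *Il10ra* -/- (4 libraries), DKO mice were *Cdcs1*, *Il10ra* -/-, *Ccr2* -/- (4 libraries) and the CCR2KO mouse was *Cdcs1*, *Ccr2* -/- (1 library, no test). IL10RA is a chain of the receptor for interleukin 10, and CCR2 is a chemokine receptor of monocytes, best known for their exit from the bone marrow. The knockouts were present in every cell of the mouse, so a difference between genotypes is not limited to what the macrophages themselves lack.

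The kynurenine pathway is the main route by which cells break down the amino acid tryptophan, and its last products feed the synthesis of NAD, the redox cofactor. IDO1 and IDO2 open the tryptophan ring, KMO and KYNU process kynurenine, and HAAO makes the precursor of quinolinic acid, from which NAD can be built. NAMPT recycles nicotinamide back towards NAD, whereas CD38 breaks NAD down at the cell surface. Kynurenine is also a ligand of AHR, the aryl hydrocarbon receptor, and TIPARP is an AHR-induced enzyme that attaches ADP-ribose from NAD to proteins and limits AHR activity. IDO1 is a classical target of interferon-gamma in macrophages and dendritic cells.

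Reads counted on genes numbered 13085287 to 21024878 in the 4 tested WT libraries, 15473135 to 20347283 in the IL10RAKO libraries and 14054105 to 21216468 in the DKO libraries. Levels are given as CPM, read counts divided by the TMM-scaled library size. *Il10ra* reached 217 to 380 CPM over the 5 WT libraries and 182 CPM in the CCR2KO library, against 4.89 to 11.2 CPM in IL10RAKO and 3.41 to 7.59 CPM in DKO. *Ccr2* stood at 514 to 759 CPM in WT and 361 to 627 CPM in IL10RAKO, against 3.92 to 6.68 CPM in DKO and 4.30 CPM in CCR2KO. The targeted genes therefore followed the labels in every library. Macrophage markers were abundant throughout, with a summed level of 49624 to 84038 CPM in the 12 tested libraries and CD74, the invariant chain of MHC class II, as the most abundant of the 13 except in IL10RAKO replicate 2, where it was H2-AB1 (21575 CPM). WT replicate 4 stood apart, with 12153000 reads on 11670 genes and epithelial markers at 4442 CPM in sum. The authors' pseudocount table has no column for it, and it was kept out of the tests. Replicate numbers only name the libraries, and neither a batch nor sex or litter is labelled.

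Loss of IL10RA was accompanied by higher levels of 5 of the 8 genes that could be tested, and none was lower. IDO1, KYNU, NAMPT, CD38 and TIPARP rose in IL10RAKO against WT, and the same 5 rose in DKO against WT, while KMO, HAAO and AHR did not pass the test in either comparison. In each of the 5 genes, every IL10RAKO and every DKO library lay above every tested WT library. The share of all genes that separate in this way was not computed, so this only describes the libraries. IDO2 had too few reads to be tested. IDO1 passed the filter on low counts only through the libraries without IL10RA, where it was high, so its place among the 5 is not separate from its rise, and of the 7 other tested genes 4 rose. Over all 13136 genes tested, 15.8% passed in IL10RAKO against WT (8.7% higher, 7.1% lower) and 18.5% in DKO against WT (9.23% higher, 9.22% lower), at an adjusted p under 0.05 in edgeR's quasi-likelihood test. Over the 7 genes other than IDO1, the median log2 fold change was 0.82 (that of KMO) in IL10RAKO and 0.68 (that of TIPARP) in DKO. The medians over all genes were -0.07 and -0.06. With IDO1 included, the median of the 8 genes was 1.07 in both comparisons. Both comparisons use the same WT mice and are therefore not independent. When libraries were scaled by their totals without TMM, the median over all genes moved to -0.38 and -0.32 and the calls split into 651 higher and 2084 lower in IL10RAKO and 748 higher and 2140 lower in DKO, yet the same 5 genes were called higher.

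**Figure D1:**
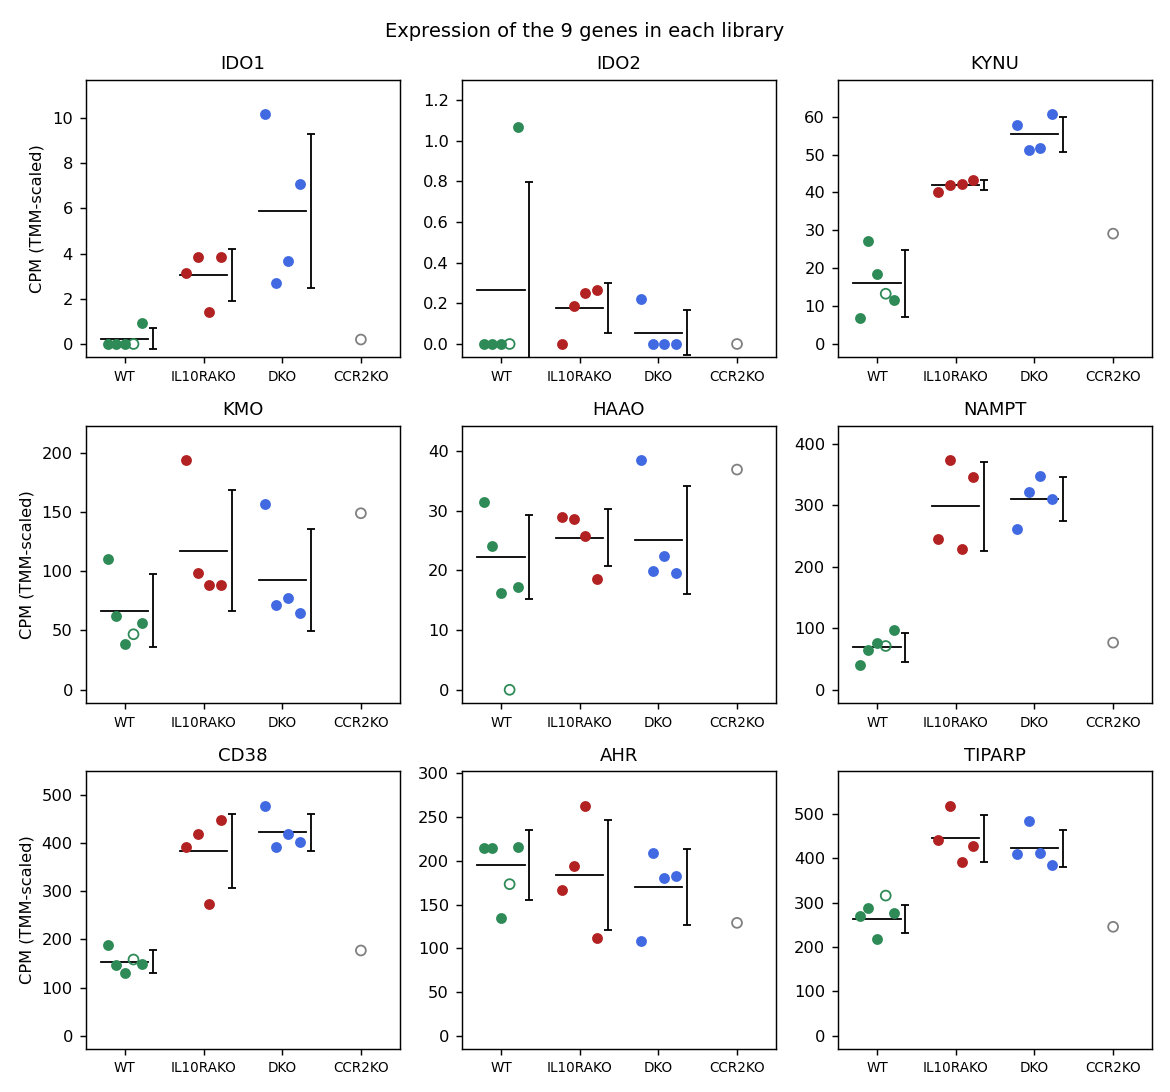
Level of each of the 9 genes in CPM (vertical axes, TMM-scaled) in the WT, IL10RAKO, DKO and CCR2KO libraries. Each point is 1 mouse, open points were not tested, black lines are means and bars are SDs of the 4 tested libraries. NAMPT in WT stayed at or below 97.4 CPM and in IL10RAKO and DKO at or above 229 CPM.

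At the entry to the pathway, IDO1 (chr8:24584136-24597009, GRCm38, minus strand) was close to undetected in WT. No read fell on it in 4 of the 5 WT libraries, replicate 4 among them, and WT replicate 5 had 14 reads (0.932 CPM). The IL10RAKO libraries held 45, 62, 28 and 58 reads, or 3.13, 3.86, 1.42 and 3.83 CPM, and the DKO libraries held 184, 43, 52 and 143 reads, or 10.2, 2.68, 3.65 and 7.07 CPM. IDO1 was thus higher in all 8 libraries without IL10RA than in any WT library, although its level stayed low. The log2 fold change was 3.82 ± 1.09 (SE) in IL10RAKO (edgeR, adjusted p = 0.0283) and 4.76 ± 1.12 in DKO (edgeR, adjusted p = 0.00833). The fitted size depends on WT replicate 5. Without that library the remaining tested WT libraries had 0 reads. Against their highest floor of 3 reads in a library (0.176 CPM), the mean of IL10RAKO was at least 17.4-fold higher and that of DKO at least 33.5-fold higher. WT replicate 4, untested and also without a read, has a higher floor of 0.220 CPM and is outside these bounds. They also leave out the only WT library with reads, after its value was seen. They are therefore no lower limits for the difference from all tested WT libraries, which the fit put at 14.1-fold in IL10RAKO and 27.1-fold in DKO. In IL10RAKO the call did not hold without WT replicate 2 (3.42, edgeR adjusted p = 0.0591), nor without IL10RAKO replicate 1 (3.80, adjusted p = 0.0566), replicate 2 (3.68, adjusted p = 0.0625) or replicate 4 (3.69, adjusted p = 0.0655), nor in a fit of only the WT and IL10RAKO libraries (3.77, adjusted p = 0.0912). In DKO it held in each fit in which IDO1 was tested. The CCR2KO library had 4 reads (0.197 CPM).

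IDO2, the paralog of IDO1, lies next to it on the same strand (chr8:24531892-24576333), 7802 bases away with no annotated gene between them. It was read only sporadically. The WT libraries had 0 reads except WT replicate 5 with 16 reads (1.07 CPM), which was also the WT library with IDO1 reads. IL10RAKO replicates 1 to 4 had 0, 3, 5 and 4 reads, and among the DKO libraries only replicate 1 had any, with 4 reads. The highest IDO2 level over all libraries was therefore found in WT, and the genotypes overlapped.

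Downstream, KYNU (kynureninase, chr2:43555329-43682715) was the enzyme of the pathway with the clearest rise. Its level was 6.78, 27.1, 18.5 and 11.6 CPM in the tested WT libraries and 13.3 CPM in WT replicate 4. IL10RAKO libraries lay close together at 40.1, 42.0, 42.1 and 43.3 CPM, and DKO libraries at 57.7, 51.1, 51.8 and 60.7 CPM. The groups did not overlap, and WT was the most variable of the 3 genotypes. Against WT, the log2 fold change was 1.39 ± 0.305 (SE) in IL10RAKO (2.62-fold, edgeR adjusted p = 0.00632) and 1.79 ± 0.308 in DKO (3.46-fold, edgeR adjusted p = 0.00101). All 4 DKO libraries also lay above all 4 IL10RAKO libraries, but that difference of 0.40 in log2 (95% interval -0.24 to 1.04) did not pass, with an unadjusted p of 0.199 in edgeR. The CCR2KO library had 29.1 CPM, between WT and IL10RAKO.

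KMO (kynurenine 3-monooxygenase, chr1:175620381-175662116) converts kynurenine to 3-hydroxykynurenine, the substrate that KYNU then cleaves. The 4 tested WT libraries had 110, 61.9, 38.4 and 56.2 CPM. In IL10RAKO its level was 194, 98.8, 88.3 and 88.6 CPM, and in DKO 156, 71.9, 77.7 and 64.7 CPM. Replicate 1 was the highest library in each genotype, and the WT range overlapped both others. In log2, the fold change of 0.82 ± 0.362 (SE) in IL10RAKO had an unadjusted p of 0.0408 and an adjusted p of 0.151 in edgeR, and that of 0.47 ± 0.361 in DKO had an adjusted p of 0.400. Without WT replicate 1 the IL10RAKO value was 1.18 with an adjusted p of 0.0336 in edgeR, and without IL10RAKO replicate 1 it was 0.47 with an adjusted p of 0.459. The DKO value was 0.84 (edgeR, adjusted p = 0.103) without WT replicate 1 and 0.11 (edgeR, adjusted p = 0.878) without DKO replicate 1. The CCR2KO library reached 149 CPM, above every WT library. Summed markers of B and plasma cells moved with KMO in part of the libraries. They were highest in WT replicate 1 (1848 CPM) and DKO replicate 1 (1900 CPM) of their genotypes and reached 2621 CPM in CCR2KO, but in IL10RAKO replicate 1, which had the highest KMO level of all libraries, they stood at 777 CPM, within the IL10RAKO range of 400.1 to 1095 CPM. Summed markers of T and NK cells were highest in replicate 1 of each genotype, as KMO was, with 45.3 CPM in WT (18.3 to 34.8 CPM in the other WT libraries), 61.5 CPM in IL10RAKO (24.8 to 49.9 CPM in the others) and 76.1 CPM in DKO (28.6 to 35.05 CPM in the others), and stood at 51.9 CPM in CCR2KO. LCK was the most abundant of them in every library. The part of either list in the level of KMO was not tested.

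HAAO (3-hydroxyanthranilate dioxygenase, chr17:83831156-83847963, minus strand) did not pass the test in any comparison. The WT libraries had 31.5, 24.2, 16.2 and 17.2 CPM, the IL10RAKO libraries 29.02, 28.6, 25.8 and 18.6 CPM and the DKO libraries 38.5, 19.9, 22.4 and 19.5 CPM. All 3 genotypes overlapped. The log2 fold change was 0.19 ± 0.269 (SE) in IL10RAKO and 0.17 ± 0.268 in DKO, with adjusted p of 0.678 and 0.713 in edgeR, and its sign turned when library totals were used without TMM (-0.11 and -0.07). WT replicate 4 had no HAAO read, while CCR2KO had 36.9 CPM.

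Of 9 other enzymes of the kynurenine pathway, 6 could be tested and none passed in either comparison against WT, beside 15.8% and 18.5% over all genes. With so few genes tested, this is near the share over all genes. At an unadjusted p under 0.05 in edgeR were QPRT in IL10RAKO and KYAT1, GOT2 and KYAT3 in DKO. TDO2, the liver enzyme for the same first step as IDO1, had at most 0.132 CPM in the tested libraries. QPRT, which turns quinolinic acid into an NAD precursor, averaged 1.41 ± 0.775 CPM (SD, n = 4) in the WT mice, 0.257 ± 0.229 in the IL10RAKO mice and 0.552 ± 0.300 in the DKO mice, with adjusted p of 0.0850 and 0.303 in edgeR. GOT2, a mitochondrial aminotransferase that can act on kynurenine, had 98.9 ± 57.5, 137 ± 28.2 and 177 ± 18.2 CPM in the same order, with adjusted p of 0.305 and 0.0622.

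Among 13 genes of tryptophan uptake and other uses, 6 were tested, of which 2 rose and 1 fell in both comparisons. That is 50% called in each, beside 15.8% and 18.5% over all genes. SLC3A2, the heavy chain that large neutral amino acid transporters share, measured 360 ± 50.4 CPM (SD, n = 4) in the WT mice and rose to 749 ± 157 in IL10RAKO and 815 ± 103 in DKO, a log2 fold change of 1.06 (edgeR, adjusted p = 8.75e-04) and 1.18 (edgeR, adjusted p = 3.23e-04). SLC7A5, one of its light chains, had 23.5, 21.4 and 25.3 CPM and did not pass. WARS, the ligase that charges the tryptophan tRNA, rose from 67.4 ± 14.3 CPM to 139 ± 36.1 in IL10RAKO and 161 ± 25.6 in DKO, with log2 fold changes of 1.04 (edgeR, adjusted p = 0.00315) and 1.25 (edgeR, adjusted p = 7.30e-04). MAOA, a monoamine oxidase that degrades serotonin, fell by 2.72 on the log2 scale in IL10RAKO (edgeR, adjusted p = 0.00531) and by 2.07 in DKO (adjusted p = 0.0195). Its WT levels were 3.92, 12.4, 38.3 and 7.99 CPM, with 92.4 CPM in WT replicate 4. The WT libraries highest in MAOA, replicates 3 and 4, were also highest in summed epithelial markers, at 1562 and 4442 CPM against 132 to 285 CPM in the other WT libraries, and their part in the MAOA level was not tested. Without WT replicate 3 the log2 fold change was -1.77 in IL10RAKO, where the call was kept, and -1.12 in DKO (edgeR, adjusted p = 0.104). The fall in DKO was not called without WT replicate 3 or without DKO replicate 1, 2 or 3.

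**Figure D2:**
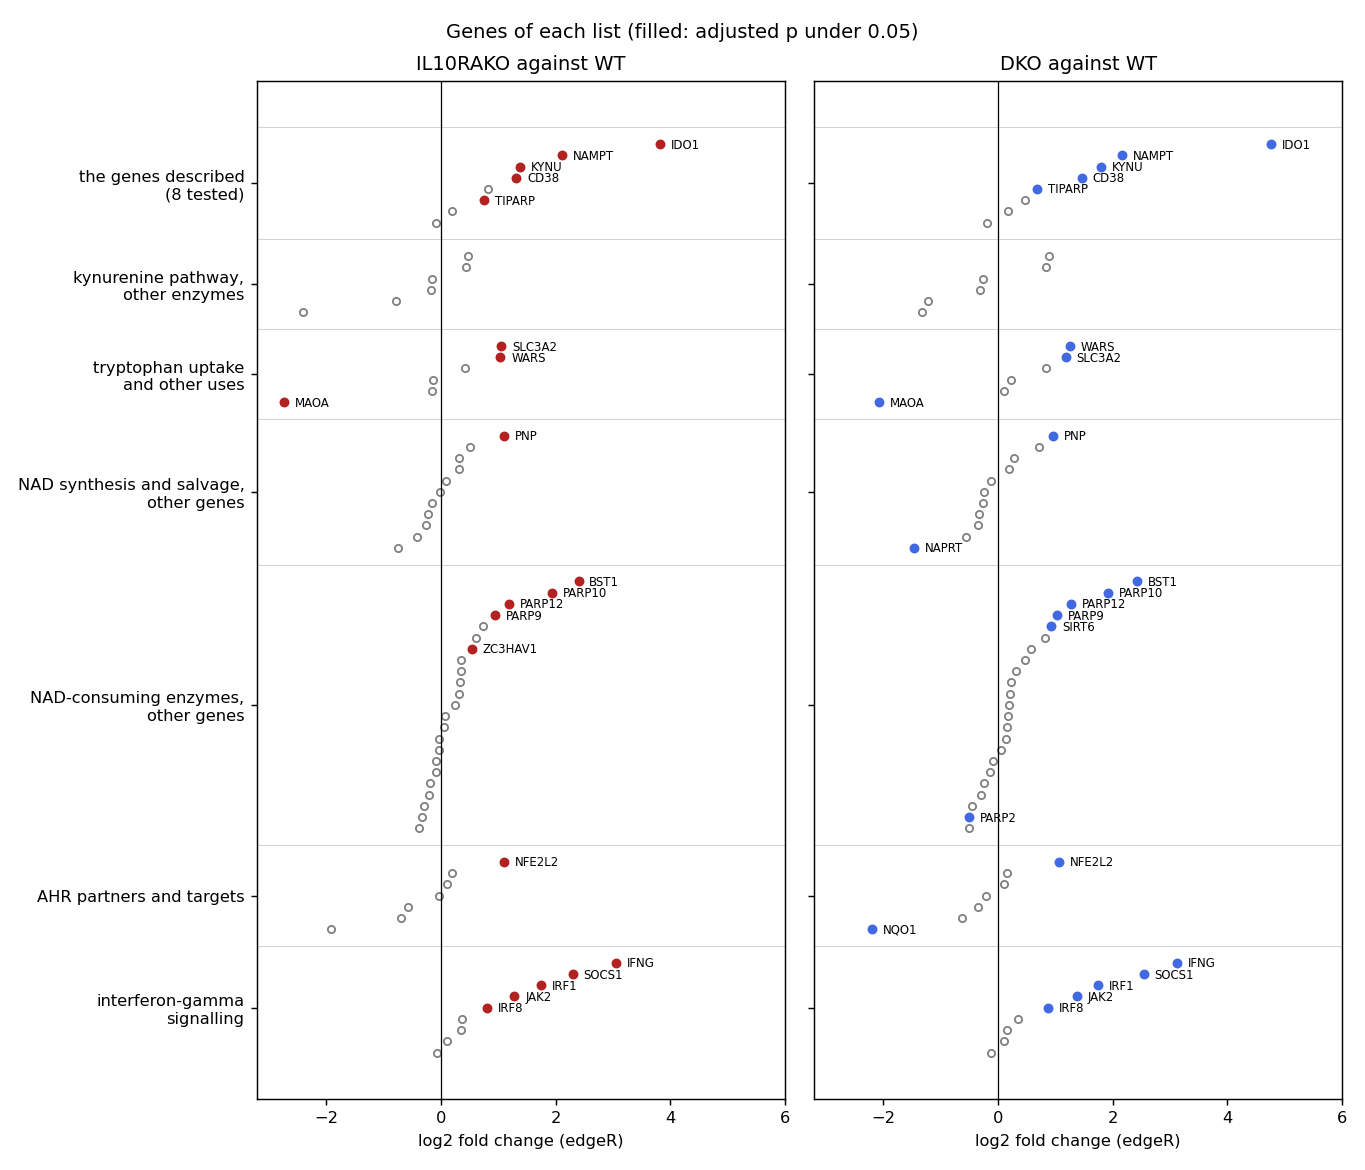
Log2 fold change (horizontal axes, edgeR) of each tested gene of the pathway lists in IL10RAKO against WT (left) and DKO against WT (right). Each point is a gene, and filled, named points passed at an adjusted p under 0.05. No other enzyme of the kynurenine pathway is filled, while BST1 and PARP10 lead the list of NAD-consuming enzymes in both panels.

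On the NAD side, NAMPT (nicotinamide phosphoribosyltransferase, chr12:32819545-32853349) had the smallest adjusted p of the 8 tested genes in both comparisons against WT. It is the rate-limiting enzyme by which nicotinamide is recycled to NAD and is also secreted. WT libraries held 40.5, 64.5, 75.5 and 97.4 CPM and WT replicate 4 held 71.3 CPM. The IL10RAKO libraries held 245, 374, 229 and 346 CPM, and the DKO libraries held 262, 323, 347 and 310 CPM. The lowest library without IL10RA was thus more than 100 CPM above the highest WT library. Against WT, the log2 fold change was 2.11 ± 0.248 (SE) in IL10RAKO (4.30-fold, edgeR adjusted p = 5.74e-05) and 2.16 ± 0.248 in DKO (4.47-fold, edgeR adjusted p = 3.71e-05). The CCR2KO library, in which *Il10ra* is intact, had 76.8 CPM, inside the WT range.

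The sequence before the RefSeq start of NAMPT is shown because this gene had the lowest adjusted p of the set and because GCGTG, the core of the AHR response element, occurs in it. RefSeq windows of 250 bases before to 50 bases after the start (build GRCm38.p6) were at hand for 5 of the 9 genes, KMO, HAAO, NAMPT, CD38 and TIPARP, and in each the RefSeq start lies inside the GENCODE span of the gene, farthest for KMO (175632193 against a first base of 175620381). The 250 bases before the RefSeq start of NAMPT, chr12:32820085-32820334 on the plus strand, lie inside the gene span given above, in the first intron of a GENCODE transcript marked for nonsense-mediated decay that begins at 32819545, while the protein-coding transcript begins at the RefSeq start. They are printed 5′ to 3′ with each GCGTG, or CACGC where it lies on the other strand, in capitals.
NAMPT: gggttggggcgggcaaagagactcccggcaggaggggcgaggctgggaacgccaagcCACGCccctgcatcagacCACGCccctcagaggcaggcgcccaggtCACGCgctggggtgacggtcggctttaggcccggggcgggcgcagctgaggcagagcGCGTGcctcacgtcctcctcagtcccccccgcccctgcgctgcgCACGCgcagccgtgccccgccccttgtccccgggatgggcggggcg
GCGTG was found 5 times in the window of NAMPT, whose GC content was 76.3%, and at least 1 match on either strand was present in 32.4% of 32851 RefSeq windows of the same length and at least 5 in 0.463%. These shares are over windows of any GC content. A gamma-activated site (TTCNNNGAA, in 8.30% of all windows) and the core of the interferon-stimulated response element (in 3.44%) were searched on both strands too, and neither had a match in any of the 5 windows. A match is a description of the letters and not a bound site.

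CD38 (chr5:43868553-43912375), an ectoenzyme that hydrolyses NAD and makes cyclic ADP-ribose, was the most highly read of the rising genes apart from TIPARP. WT libraries held 188, 148, 131 and 149 CPM. IL10RAKO libraries held 392, 420, 274 and 449 CPM, against 478, 392, 419 and 402 CPM in the DKO libraries. WT replicate 4 (158 CPM) and CCR2KO (177 CPM) fell within the range of the tested WT libraries. Every library without IL10RA was above that range. In log2, the fold change was 1.32 ± 0.174 (SE) in IL10RAKO (2.49-fold, edgeR adjusted p = 1.46e-04) and 1.46 ± 0.175 in DKO (2.75-fold, edgeR adjusted p = 5.39e-05). Its paralog BST1 (CD157, chr5:43818885-43843986), the neighbouring gene at a distance of 24566 bases, rose as well. BST1 ranged from 8.16 to 18.2 CPM over the tested WT libraries, from 27.3 to 94.9 CPM over IL10RAKO and from 60.1 to 68.3 CPM over DKO, with log2 fold changes of 2.40 ± 0.330 (edgeR, adjusted p = 2.00e-04) and 2.42 ± 0.330 (edgeR, adjusted p = 1.59e-04).

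Of 24 other genes of NAD-consuming enzyme families, 23 were tested. In IL10RAKO 5 rose and none fell, and in DKO 5 rose and 1 fell, or 21.7% and 26.1% called beside 15.8% and 18.5% over all genes, with a list median of 0.25 and 0.19 in log2 beside -0.07 and -0.06 over all genes. Besides BST1, the genes called higher in both were PARP9, PARP10 and PARP12, members of the ADP-ribosyltransferase family to which TIPARP belongs. PARP10 rose from 37.9 ± 14.1 CPM (SD, n = 4) to 145 ± 60.5 in IL10RAKO and 144 ± 33.8 in DKO (log2 fold changes of 1.94 and 1.93, edgeR adjusted p = 9.56e-04 and 8.51e-04). PARP12 rose by 1.19 and 1.27 and PARP9 by 0.94 and 1.03 on the log2 scale. ZC3HAV1, an antiviral member of the PARP family that is listed by family and is known to lack catalytic activity, passed in IL10RAKO with 0.54 (edgeR, adjusted p = 0.0381), and in DKO SIRT6, a nuclear deacetylase, rose by 0.93 (edgeR, adjusted p = 0.0385) and PARP2, a DNA repair enzyme, fell by 0.50 (edgeR, adjusted p = 0.0348). These 3 calls were lost in 9, 7 and 9 of 20 alternatives. PARP1, the main nuclear NAD consumer, had 145, 127 and 131 CPM on average and did not pass, nor did SIRT1.

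Of 15 genes of NAD synthesis other than NAMPT, 11 were tested, and 1 was higher and none lower in IL10RAKO, while 1 was higher and 1 lower in DKO, or 9.09% and 18.2% called beside 15.8% and 18.5% over all genes. PNP, which frees nicotinamide from its riboside, rose from 90.6 ± 12.5 CPM (SD, n = 4) to 195 ± 67.5 in IL10RAKO and 177 ± 32.9 in DKO, with log2 fold changes of 1.11 (edgeR, adjusted p = 0.00526) and 0.97 (edgeR, adjusted p = 0.0105). NAPRT, which makes NAD from nicotinic acid in place of nicotinamide, was at 12.9 ± 4.62, 7.71 ± 2.40 and 4.67 ± 1.28 CPM. It fell by 1.47 on the log2 scale in DKO (edgeR, adjusted p = 0.00809), whereas the value of -0.75 in IL10RAKO did not pass (adjusted p = 0.156). NMNAT1 and NMNAT3, which complete the NAD molecule, did not pass in either comparison, and neither did NADSYN1.

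AHR (chr12:35497974-35535038, minus strand), a ligand-activated transcription factor, did not pass the test in any comparison. The WT libraries had 214, 215, 135 and 216 CPM, the IL10RAKO libraries 166, 194, 263 and 112 CPM and the DKO libraries 108, 209, 180 and 182 CPM. The lowest and the highest of the 12 values both came from mice without IL10RA, and all groups overlapped. The log2 fold change was -0.08 ± 0.259 (SE) in IL10RAKO (95% interval -0.64 to 0.47, edgeR adjusted p = 0.866) and -0.20 ± 0.260 in DKO (95% interval -0.75 to 0.36, edgeR adjusted p = 0.656). AHR shares 127 exonic bases with the annotated RNA Gm48236 on the other strand, which has no row in the count table.

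TIPARP (chr3:65528410-65555518) rose in both genotypes, by less than the other 4 genes. Its tested WT libraries had 269, 288, 219 and 278 CPM. The 4 IL10RAKO values were 442, 519, 392 and 428 CPM, and the 4 DKO values were 410, 484, 412 and 386 CPM. WT replicate 4 had 316 CPM and CCR2KO 246 CPM, both below every library without IL10RA. Against WT, the log2 fold change was 0.76 ± 0.146 (SE) in IL10RAKO (1.69-fold, edgeR adjusted p = 0.00254) and 0.68 ± 0.145 in DKO (1.61-fold, edgeR adjusted p = 0.00460). A pseudogene on the other strand, 4931440P22RIK, shares 223 exonic bases with TIPARP and had 38.4 to 88.5 CPM over all 14 libraries. The strand setting of the counting is not given in the sources used here, so reads in the shared bases cannot be assigned. The upstream sequence of TIPARP is printed because it is a textbook AHR target. The 213 bases from the start of the RefSeq window to the first annotated exon, chr3:65528197-65528409 on the plus strand of GRCm38.p6, hold the single GCGTG of its window, which lies on the other strand and is in capitals as CACGC.
TIPARP: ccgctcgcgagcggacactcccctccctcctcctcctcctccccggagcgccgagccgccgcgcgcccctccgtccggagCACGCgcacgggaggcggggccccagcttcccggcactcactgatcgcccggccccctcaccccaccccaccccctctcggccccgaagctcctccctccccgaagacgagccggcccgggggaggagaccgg
HAAO also had a single match of GCGTG in its window, and KMO and CD38 had none.

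**Figure D3:**
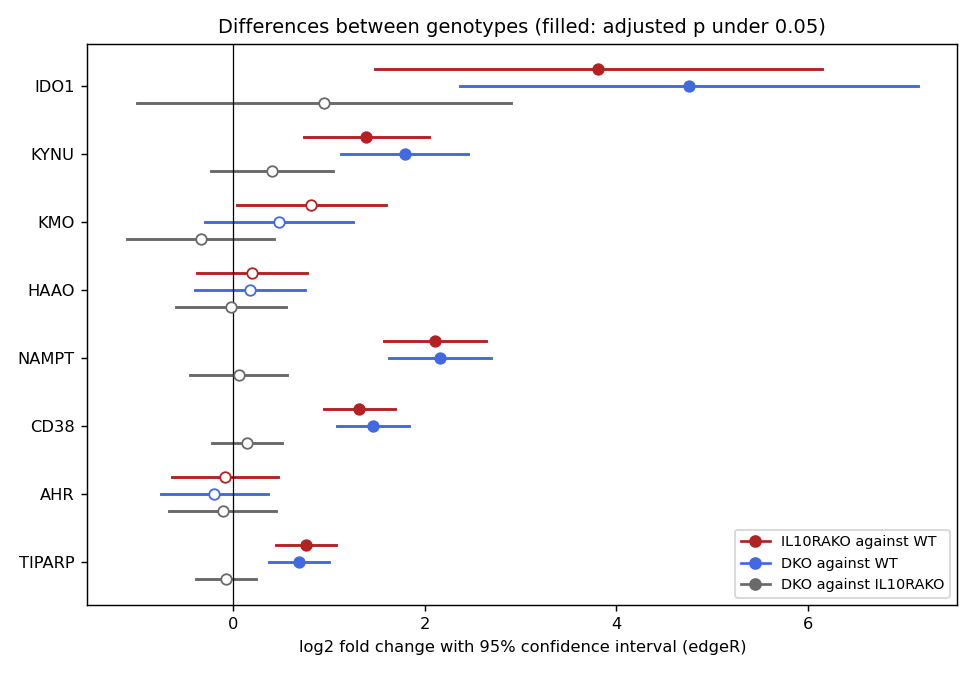
Log2 fold change (horizontal axis) with its 95% confidence interval from edgeR for the 8 tested genes in IL10RAKO against WT, DKO against WT and DKO against IL10RAKO. Filled points passed at an adjusted p under 0.05. All grey intervals, those of DKO against IL10RAKO, cross 0, and the widest belongs to IDO1 (-1.01 to 2.90).

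Of 15 partners and targets of AHR, 7 were tested, and in IL10RAKO 1 was higher and none lower, in DKO 1 was higher and 1 lower, or 14.3% and 28.6% called beside 15.8% and 18.5% over all genes. The list medians were -0.03 and -0.21 in log2, beside -0.07 and -0.06 over all genes. CYP1A1, CYP1A2 and CYP1B1, the cytochrome genes by which AHR activity is usually read, had too few reads to be tested. CYP1A1 had 8.20 CPM in WT replicate 3 and 1.29 CPM in WT replicate 1, 0 reads in the other WT libraries and at most 0.249 CPM in IL10RAKO and DKO, and CYP1A2 and CYP1B1 had at most 0.139 CPM in any tested library. The repressor AHRR, an AHR target, had 10.8, 6.70 and 9.34 CPM on average and did not pass. NFE2L2, a regulator of antioxidant genes, rose by 1.10 in IL10RAKO (edgeR, adjusted p = 4.21e-04) and by 1.07 in DKO (edgeR, adjusted p = 4.65e-04) on the log2 scale. NQO1, a quinone reductase, fell by 2.19 in DKO (edgeR, adjusted p = 0.0302), a call that was lost in 7 of 20 alternatives. It was highest in WT replicate 3 (8.74 CPM, against 1.06 to 5.59 CPM in the other tested WT libraries and 0.685 to 1.21 CPM in DKO, which overlapped WT), and without that library the value was -1.55 (edgeR, adjusted p = 0.127). WT replicate 3 was also the tested WT library highest in summed epithelial markers (1562 CPM), and their part in the levels of CYP1A1 and NQO1 was not tested.

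As a reference for the signal that IDO1 is known to follow, 9 genes of interferon-gamma signalling were read in the same fit. In each comparison 5 rose and none fell, namely IFNG, JAK2, IRF1, IRF8 and SOCS1. That is 55.6% called in each, beside 15.8% and 18.5% over all genes. The list medians were 0.81 and 0.87 in log2, beside -0.07 and -0.06 over all genes. IRF1, a transcription factor induced by interferon-gamma, went from 344 ± 80.6 CPM (SD, n = 4) in the WT mice to 1162 ± 256 in IL10RAKO and 1150.1 ± 243 in DKO. IFNG itself was at 1.76 ± 1.46, 14.8 ± 8.48 and 15.5 ± 18.5 CPM, and its call was lost without WT replicate 2 (IL10RAKO), IL10RAKO replicate 1 (IL10RAKO) or DKO replicate 1 (DKO). DKO replicate 1 held 43.1 CPM of IFNG, and the lowest DKO library, at 3.36 CPM, lay within the tested WT range (0.573 to 3.56 CPM). Without DKO replicate 1 the log2 fold change in DKO was 1.84 (edgeR, adjusted p = 0.0755). The receptor chains IFNGR1 and IFNGR2 and the activator CIITA did not pass.

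The comparison of DKO with IL10RAKO asks what the further loss of CCR2 changed in mice without IL10RA. None of the 8 tested genes passed, by edgeR or by DESeq2, and none had an unadjusted p under 0.05 in edgeR. Over all genes 0.0457% passed (0.0152% higher, 0.0305% lower). The median log2 fold change of the 8 was 0.02, beside -0.01 over all genes. The 95% intervals bound what could have been missed, with a spread fitted over all 3 genotypes, WT among them. They ran from -0.45 to 0.56 for NAMPT, from -0.23 to 0.51 for CD38, from -0.38 to 0.24 for TIPARP, from -0.67 to 0.44 for AHR, from -0.60 to 0.55 for HAAO and from -1.11 to 0.43 for KMO, so that a log2 change of 1 in either direction lay outside the interval for the first 5 genes. KYNU, with every DKO library above every IL10RAKO library, was 0.40 higher in DKO. Its interval of -0.24 to 1.04 included a log2 change of 1, and WT, the most variable genotype for KYNU, entered the spread behind it. IDO1 was 0.95 higher in DKO with an interval of -1.01 to 2.90 and could not be placed. In none of the pathway lists did a gene pass between DKO and IL10RAKO.

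Per length of annotated exons, the order of the genes differed between genotypes. In WT, TIPARP had the highest level (60.4 CPM per kb of exon), followed by CD38 (39.6), AHR (31.6), KMO (14.1), NAMPT (13.7), HAAO (4.76), KYNU (2.60), IDO1 (0.128) and IDO2 (0.0733). In DKO, the levels were 109 CPM per kb for CD38, 97.1 for TIPARP, 61.5 for NAMPT, 27.6 for AHR, 19.6 for KMO, 9.00 for KYNU, 5.36 for HAAO, 3.23 for IDO1 and 0.0152 for IDO2. IL10RAKO had TIPARP (102) and CD38 (98.6) at the top, then NAMPT (59.1), AHR (29.8), KMO (24.8), KYNU (6.81), HAAO (5.45), IDO1 (1.68) and IDO2 (0.0484). NAMPT thus stood below AHR in every WT library and above it in every IL10RAKO and DKO library. Neighbours whose libraries overlapped were CD38 and AHR, AHR and KMO, KMO and NAMPT, HAAO and KYNU, and IDO1 and IDO2 in WT, TIPARP and CD38, CD38 and NAMPT, and AHR and KMO in IL10RAKO, and CD38 and TIPARP, AHR and KMO, and HAAO and IDO1 in DKO. With the exons of protein-coding transcripts alone, HAAO rose to 15.4, 17.7 and 17.4 CPM per kb in WT, IL10RAKO and DKO and passed NAMPT in WT and KYNU in the others, and CD38 passed TIPARP in IL10RAKO.

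**Figure D4:**
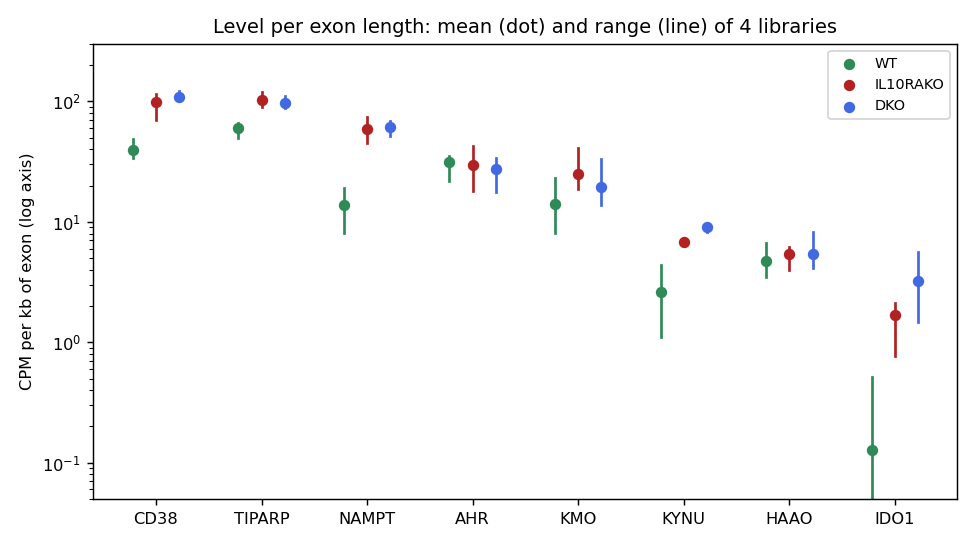
Level per kb of annotated exon (vertical axis, CPM per kb, log scale) of 8 genes in WT, IL10RAKO and DKO, ordered by DKO. Dots are means and lines run from the lowest to the highest of 4 libraries, cut at the lower edge for IDO1 in WT, where 3 libraries were at 0. AHR stands at 31.6, 29.8 and 27.6 CPM per kb in the 3 genotypes while NAMPT moves from 13.7 to 59.1 and 61.5.

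For each of the 8 genes, the other genes with the most similar profile (up to 2) were found by the root mean square difference of log2 CPM over the 12 tested libraries, after each gene was centred on its mean. NAMPT was nearest to CLEC7A (0.200), the beta-glucan receptor dectin-1 of myeloid cells, and to PARP10 (0.221). CD38 was nearest to SNX10 (0.140) and M6PR (0.164), both of endosomal transport. TIPARP was nearest to MARCH7 (0.0839) and RAB8B (0.126), and KYNU to DNASE1L3 (0.336), a secreted DNase of myeloid cells, and PYGL (0.380), a glycogen phosphorylase. IDO1 was nearest to GBP10 (0.698), an interferon-inducible GTPase, and F830016B08RIK (0.736). These differences were the largest of the 8 genes, but so was the standard deviation of IDO1 itself, at 2.28 beside 0.365 (HAAO) to 1.08 (NAMPT) in the others. The differences therefore do not rank the genes by how close their neighbours are. KMO lay nearest to MDH2 (0.231) and CLDND1 (0.234), HAAO to SLC4A1AP (0.168), and AHR to TBC1D1 (0.151) and GBA2 (0.162). Part of these likenesses is the difference between genotypes that the genes have in common.

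Markers of other cells were read in the same libraries, since in a sorted bulk sample fewer cells of a type and less RNA per cell cannot be told apart. Of 10 dendritic cell markers, 5 were higher and 2 lower in IL10RAKO and 4 were higher and 2 lower in DKO. That is 70% and 60% called, beside 15.8% and 18.5% over all genes. Summed, they reached 331 to 1166 CPM over the tested WT libraries, 1601 to 2060 CPM over IL10RAKO and 1164 to 1939 CPM over DKO, and CCR7 was the most abundant (506, 1530 and 1357 CPM on average), while FLT3 and ZBTB46 did not pass. LY6C2 and PLAC8, genes of monocytes, rose, and F13A1 of the same list fell from 344 to 18.7 and 10.1 CPM. Stromal markers fell, 6 of 9 in IL10RAKO and 7 of 9 in DKO (66.7% and 77.8%, beside the same 15.8% and 18.5%). COL3A1, the most abundant of them in WT, had 251, 13.0 and 18.2 CPM. The called markers among these changed across the same genotypes as IDO1, KYNU, NAMPT, CD38 and TIPARP, some upward and some downward. The part of these markers in the rise of those 5 genes was not tested. Of 13 macrophage markers, 2 were higher in IL10RAKO (FCGR1 and H2-AB1), and in DKO MERTK was higher and ADGRE1 and CX3CR1 were lower. These shares of 15.4% and 23.1% were near those over all genes. None of the tested markers of T and NK cells or of B and plasma cells passed in either comparison against WT, and LCK had 15.9, 21.6 and 21.05 CPM, CD79A 336, 267 and 306 CPM and JCHAIN 384, 159.8 and 249 CPM on average. Neutrophil genes were scarce, and MPO, ELANE and CAMP were at 0 in the tested WT libraries. CXCR2 and NGP were called higher in both comparisons and LTF in DKO, or 50% and 75% of the tested genes of the list. CXCR2, NGP and LTF averaged 0.0414, 0.0358 and 0.444 CPM in WT. Like IDO1, they passed the filter on low counts only through libraries without IL10RA, so these shares are not separate from the rise. In IL10RAKO, NGP overlapped WT, and its level came almost wholly from replicate 2 (10.2 CPM, group mean 2.61 ± 5.03 CPM, SD). Epithelial genes did not pass except MUC2, which was lower in DKO. Of the mast cell and eosinophil list, KIT rose from 22.04 to 83.8 and 102 CPM, whereas MCPT1, MCPT2 and EPX were at 0 in all libraries without IL10RA.

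**Figure D5:**
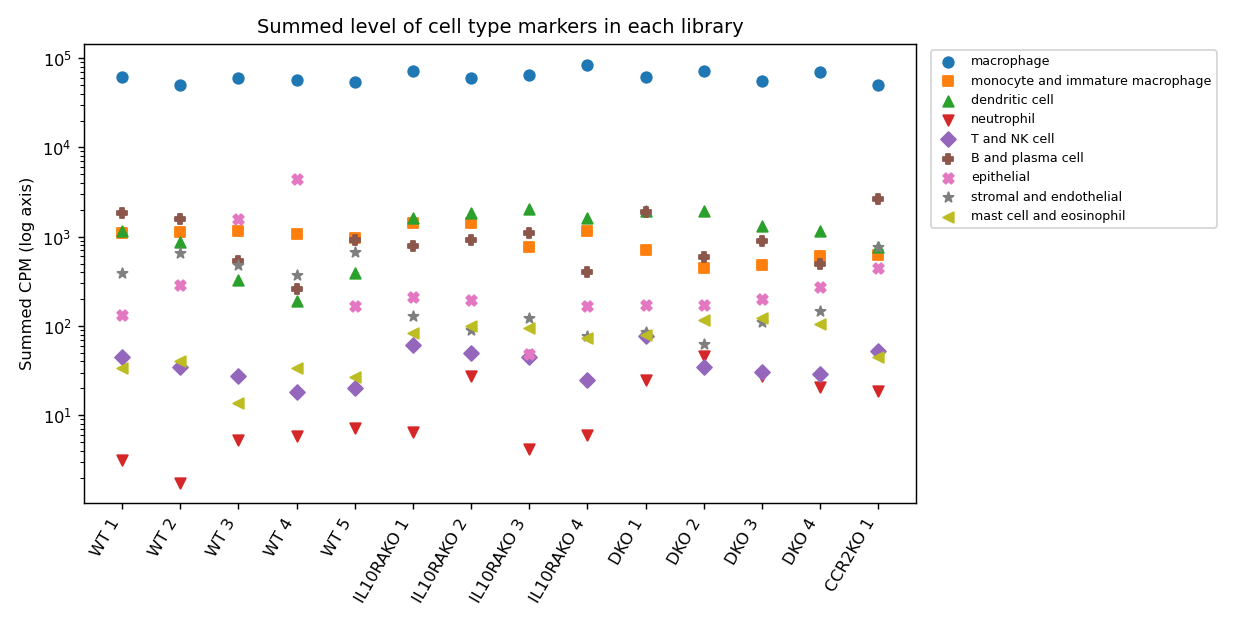
Summed level of each list of cell type markers (vertical axis, CPM, log scale) in each library, named by genotype and replicate. Each symbol is a marker list. Macrophage markers lie above all others in every library, and stromal and endothelial markers drop from 396 to 679 CPM in the tested WT libraries to 63.4 to 148 CPM in IL10RAKO and DKO.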

How the data were processed

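Sorted colonic macrophages were profiled by SmartSeq v4 and paired-end sequencing, 1 mouse per library. The authors aligned reads to mm10 with STAR 2.5.1b and deposited raw counts of reads per gene, without normalization. They also deposited edgeR pseudocounts (a score on a common library scale), of which the column names alone were used. Which annotation was used, whether strand was counted and how multiply aligned reads were treated are not given in the sources used here.

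Groups came from the sample labels. The 12 libraries of the pseudocount table were fitted together in R 4.3.3 with edgeR 4.0.16 (filterByExpr with a minimum count of 10, TMM, quasi-likelihood test, default deviance), and p-values were adjusted by Benjamini-Hochberg over 13136 genes. SEs and 95% intervals come from this fit, and CPM from its effective library sizes. Because a mouse gave 1 library, p-values measure the spread between mice. A floor of 3 reads covers counting error only. No 2 libraries of a genotype agreed within sampling noise (chi-square per degree of freedom at least 31.8). The fit was tested on simulated data. DESeq2 1.42.0, other scalings, filters and libraries, and leaving out each replicate were the alternatives.

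The 9 genes, the pathway and marker lists and the rules for naming genes were chosen with earlier results of these data known. From each pathway list up to 5 genes with the smallest adjusted p against WT were named, and from each marker list the most abundant and the defining ones. ZC3HAV1 and SIRT6 were named beyond these 5, and AHRR, SLC7A5, PARP1, SIRT1, NMNAT1, NMNAT3, NADSYN1 and other genes that did not pass were named for their role after their values were seen. Positions and exon lengths were taken from GENCODE vM21 (GRCm38) and promoter sequences from RefSeq. Some genes are not reported here and were left out of the lists and of their counts.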

Additional observations from a re-analysis of the deposited data

Results flagged for a closer look

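Of 36 groups of libraries, with WT counted both as 4 and as 5 libraries, 9 held a library far from the rest. Chance gives this in about 5% of groups, a rate that does not apply to IDO1 in WT or to IDO2, where all other libraries of the group were at 0. WT replicate 5 was the only WT library with reads on IDO1 (0.932 CPM) and on IDO2 (1.07 CPM), whether 4 or 5 WT libraries were considered. DKO replicate 1 was the only DKO library with IDO2 reads (0.221 CPM), and it also stood above the other DKO libraries in KMO (156 CPM, next 77.7 CPM) and HAAO (38.5 CPM, next 22.4 CPM). IL10RAKO replicate 1 had 194 CPM of KMO, next to 98.8 CPM in the nearest library. WT replicate 3 had 135 CPM of AHR, below 214 CPM in the nearest of the tested WT libraries, but did not stand apart once WT replicate 4 (173 CPM) was added.

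The CCR2KO library, which entered no test, lay above all 5 WT libraries in KYNU (29.1 CPM, highest WT 27.1 CPM), KMO (149 CPM, highest WT 110 CPM) and HAAO (36.9 CPM, highest WT 31.5 CPM). It is a single mouse, and these differences have no replicate check.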

How the results depend on the processing

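Of 477 log2 fold changes recomputed for the 8 genes, 454 kept their direction and their side of the threshold, 5 lost the call (all IDO1 in IL10RAKO, values in the report), 1 gained it (KMO in IL10RAKO without WT replicate 1) and 17 turned sign, none of them a called value. The sign turned with library totals without TMM for HAAO (-0.11, -0.068 and 0.039 in IL10RAKO against WT, DKO against WT and DKO against IL10RAKO). When 1 replicate was left out, it turned within these ranges: AHR in IL10RAKO against WT -0.30 to 0.10, HAAO in DKO against WT -0.11 to 0.39, and in DKO against IL10RAKO KMO -0.72 to 0.013, HAAO -0.31 to 0.082, NAMPT -0.035 to 0.18, AHR -0.29 to 0.13 and TIPARP -0.14 to 0.0075.

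All genes called between DKO and IL10RAKO numbered 6, against 24 with DESeq2 (3 higher, 21 lower), and 4 to 10 when a replicate was left out, the 10 without IL10RAKO replicate 2. None of the 8 genes was among the calls in any of these fits. Leaving out a replicate gave 1485 to 2554 genes in IL10RAKO against WT with 4 to 6 of the 8, and 1691 to 2995 in DKO against WT with 5 of the 8 each time. IDO1 was not tested where every library needed 10 counts. With WT replicate 4 added, 5 of the 8 were called in each comparison against WT.

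The cause of these changes was not tested. No paired analysis was possible because the replicate numbers follow the accession order and the groups hold different mice.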
